A study of Mus musculus with 6 samples.

Results

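The receptors and natural antagonists of the interleukin-1 (IL-1), IL-18 and IL-33 cytokines were followed as a set of 9 genes out of the 41388 genes of the expression table. The set was chosen by name as members of the family and with the WT against Irf1-/- values of these same libraries known, so that their difference between genotypes is given as a description and without a test. The 9 genes are Il18r1, Il18rap, Il1rl1, Il1r1 and Il1rap (receptor chains), Il1r2 and Sigirr (decoy and inhibitory receptors), and Il1rn and Il18bp (secreted antagonists). The study asked how the transcription factor IRF1 acts on Th9 cells, the IL-9-producing helper T cells, when they meet interferon-γ. Naive CD4+ T cells of WT or Irf1-/- mice of 8 to 12 weeks on the C57BL/6 background were activated with antibodies to CD3 and CD28 for 2 days with IL-2, IL-4 and TGF-β (Th9 conditions). Both groups received IFN-γ at 5 ng per ml, and untreated cells and other helper subsets were not analysed here. Each group held 3 libraries of poly(A) RNA, named replicates 1 to 3, and the Irf1 mutation is carried in the germline, so that all cells of the mouse lacked a functional IRF1 before and during the culture.

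IL-1α and IL-1β bind Il1r1, IL-33 binds Il1rl1 (ST2) and IL-18 binds Il18r1. Each then recruits a second chain, Il1rap for the IL-1 and IL-33 receptors and Il18rap for the IL-18 receptor, and the paired intracellular domains call in MyD88 and the IRAK kinases, which activate NF-κB and MAP kinases. Il1r2 binds IL-1 without signalling, Sigirr dampens signalling within the cell, Il1rn occupies Il1r1 without activating it, and Il18bp captures free IL-18. In helper T cells, ST2 is best known on Th2 and regulatory T cells and the IL-18 receptor on Th1 cells, where IL-12 raises it.

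The values are normalized counts, each gene's read count scaled by the size factor of the library, and they can be compared between libraries for 1 gene. Reads on genes ranged from 5639788 to 13348230 per library, with the 2 replicates 3 about as deep as the other replicates of their genotype together, and 3 reads, taken as the floor, corresponded to normalized counts between 1.84 and 4.16. The targeted gene Irf1 was present but lower in the Irf1-/- libraries, at 2660 to 2968 in WT and 1476 to 1780 in Irf1-/- replicates, and counts per gene do not show which of its exons the reads covered. Il9, the cytokine that names these cells, had 852 to 1272 normalized counts in WT and 3201 to 3726 in Irf1-/- cells. The summed T cell markers (Cd3e, Cd3g, Cd3d, Cd4, Lck, Cd5) lay between 14198 and 14945 in all 6 libraries, and NK cell markers reached at most 4.78. WT replicates 1 and 2 held Y-linked transcripts (summed level 2301 and 2306), whereas the other 4 libraries held at most 11.1 and expressed Xist, so that the sex of the mice and the genotype were partly confounded. Irf1-/- replicate 2 stood apart by its myeloid transcripts, with a sum of 1042 over 8 markers against 42.8 to 238 in the other 5 libraries. The study describes the replicates as independent biological samples, while the labels do not say that they came from separate animals, and standard errors and p-values measure the spread between these samples.

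The start regions of 3 members are printed here, Il18r1 and Il1rn because they were, among the members above a mean of 10, those higher in all Irf1-/- libraries and Il18rap as the neighbour and partner of Il18r1. The sequences are from RefSeq on GRCm38.p6, 5′ to 3′ on the plus strand and without any annotated exon. That of Il1rn belongs to a start site inside the longer gene model. Capitals mark a STAT6-like motif, spelled TTCNNNNGAA.
Il18r1, chr1:40465416-40465551, plus strand: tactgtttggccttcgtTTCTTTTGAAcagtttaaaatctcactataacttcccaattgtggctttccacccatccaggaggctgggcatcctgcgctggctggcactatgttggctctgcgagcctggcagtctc
Il18rap, chr1:40515112-40515361, plus strand: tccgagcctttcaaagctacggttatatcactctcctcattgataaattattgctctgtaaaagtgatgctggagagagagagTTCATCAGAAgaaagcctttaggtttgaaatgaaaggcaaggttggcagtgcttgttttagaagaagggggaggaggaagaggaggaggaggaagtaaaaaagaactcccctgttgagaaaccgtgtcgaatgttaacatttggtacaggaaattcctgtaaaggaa
Il1rn, chr2:24345041-24345287, plus strand: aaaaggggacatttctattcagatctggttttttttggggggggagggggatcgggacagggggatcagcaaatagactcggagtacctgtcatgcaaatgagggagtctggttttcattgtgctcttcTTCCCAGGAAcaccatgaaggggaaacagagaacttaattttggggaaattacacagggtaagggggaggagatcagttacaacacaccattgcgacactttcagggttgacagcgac

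The Il18r1 stretch is short because it fills the gap of 136 bases between the end of Il1rl1 and the start of Il18r1, both on the plus strand. Its match began 119 bases before the start site, that of Il18rap 167 bases before and that of Il1rn 121 bases before. Windows of 250 bases before to 50 after a start site were given for 8 of the 9 genes, 14 windows in all, and Sigirr had none in the table. Both strands were searched for 4 motifs, and the STAT6-like letters occurred in 6.95% of the 32851 windows of all genes. The ISRE-like motif GAAANNGAAA, the kind of sequence that interferon regulatory factors bind, occurred in 3.44% of all windows and among the 9 genes only in that of Il1rap, 20 bases after the start. The study spells its ISRE motif with fewer letters, AANNGAAA, and this spelling was not searched over all windows. Each of the printed stretches holds these shorter letters on the plus or the minus strand, so that the absence above applies to the longer spelling only. The GAS-like motif TTCNNNGAA (8.30% of all windows) was found in the window of Il1r2 and in the third window of Il18r1. The AP-1-like motif TGANTCA (7.81%) was found in the first window of Il1rn. None of the 4 motifs was found in the windows of Il1rl1, Il1r1 and Il18bp. These are matches of letters in short windows and not bound sites.

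To order the genes, counts were taken per kilobase of exon, with the annotated exons of all forms of a gene joined. The order therefore depends on exons that these cells may not use. On this scale Sigirr was the most abundant member in WT cells with 118 ± 15.2 normalized counts per kb (SD, n = 3), followed by Il1rn with 47.9 ± 5.61. Il18bp (11.8 ± 2.24), Il1rap (8.55 ± 1.24), Il18rap (5.62 ± 0.735) and Il18r1 (3.01 ± 1.19) formed a middle tier per kb. Among neighbours in this order only Il18bp and Il1rap overlapped in their library values. The 3 remaining receptors, Il1r2, Il1rl1 and Il1r1, lay below 0.5 per kb on average and could not be ordered. In Irf1-/- cells, Sigirr (135 ± 8.99 per kb) and Il1rn (87.6 ± 13.7 per kb) again came first, and Il18r1 moved from the sixth place to the third with 10.8 ± 0.958 per kb. Il18bp, Il18rap and Il1rap came next in Irf1-/- cells, with neighbouring values that overlapped between libraries. In both genotypes Il1rn and Sigirr thus exceeded every ligand-binding chain of the set.

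**Figure D1:**
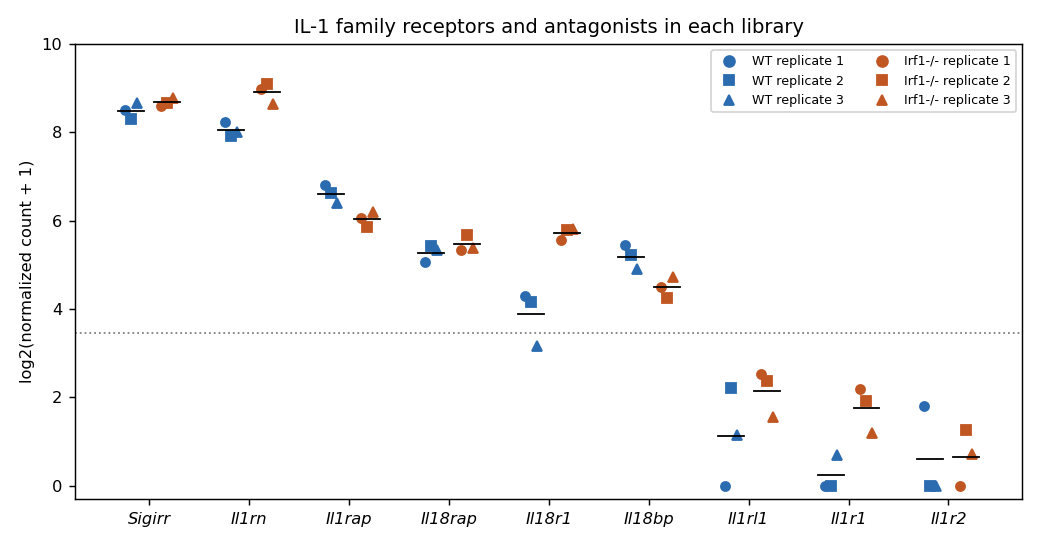
Each point is 1 library (blue, WT; orange, Irf1-/-; circle, square and triangle, replicates 1, 2 and 3) on a vertical axis of log2(normalized count + 1), with the horizontal bar at the group mean of these log values and the dotted line at a normalized count of 10. Il18r1 and Il1rn lie higher in all 3 Irf1-/- libraries, Il1rap and Il18bp lie lower in all 3, and Il1rl1, Il1r1 and Il1r2 lie under the dotted line.

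Il18r1 (ENSMUSG00000026070, chromosome 1 of GRCm38 from 40465552 to 40500854), the chain that binds IL-18, showed the widest separation of the set. WT replicates 1, 2 and 3 had 18.7, 16.8 and 7.99 normalized counts, and the same replicates of Irf1-/- cells had 46.6, 54.1 and 55.0. All Irf1-/- libraries lay above all WT libraries, and the lowest value, in WT replicate 3, came from 13 reads. The means were 14.5 ± 5.73 and 51.9 ± 4.62 (SD, n = 3 each), a log2 fold change of 1.85 with a standard error of 0.30 on the log2(normalized count + 1) scale. Between the replicates 3, the pair of larger libraries, the difference was 2.64 on that scale, and between replicates 1 and 2 it was 1.45. The presence of Y-linked transcripts, which marked WT replicates 1 and 2, was also entered in the model as a covariate. The genotype difference then set the 3 Irf1-/- libraries against WT replicate 3 alone, here and for every gene below. It was 2.55 for Il18r1, and this fit cannot tell sex from anything else particular to WT replicate 3. Leaving out the myeloid-rich Irf1-/- replicate 2 gave a log2 fold change of 1.81 for Il18r1. In bulk RNA of this kind, fewer cells that express a gene and less RNA per cell cannot be told apart.

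Il18rap (ENSMUSG00000026068, chromosome 1, 40515362 to 40551705) encodes the signalling partner of Il18r1 and starts 14507 bases after its end. Its normalized counts were 32.4, 42.1 and 39.3 in WT and 39.4, 49.9 and 40.9 in Irf1-/- replicates 1, 2 and 3. The groups overlapped, with a log2 fold change of 0.19 and a standard error of 0.19. The balance of the 2 chains therefore differed between the genotypes. Per kb, Il18r1 stood at 0.809, 0.561 and 0.285 times Il18rap in the WT replicates 1, 2 and 3 and, in the same order, at 1.66, 1.52 and 1.88 times in Irf1-/- cells. Il18r1 was thus the scarcer transcript in all 3 WT libraries and the more abundant one in all 3 Irf1-/- libraries, a ratio that rests on the same Il18r1 values.

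Il1rap (ENSMUSG00000022514, chromosome 16 from 26581704 to 26730117), the shared second chain of the IL-1 and IL-33 receptors, ran the other way. WT replicates 1, 2 and 3 had 111, 97.4 and 83.0 normalized counts, and Irf1-/- replicates 1, 2 and 3 had 65.7, 56.9 and 72.9. No Irf1-/- library reached the lowest WT library, WT replicate 3, with means of 97.1 ± 14.0 and 65.1 ± 8.01 (SD, n = 3 each). The log2 fold change was -0.57 with a standard error of 0.16. It was -0.76 in replicates 1 and 2 and -0.19 between the replicates 3, and -0.35 with the Y-linked covariate. The Y-linked transcripts of WT replicates 1 and 2, where Il1rap was highest, moved with this difference, and their part in it was not tested.

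The 3 other ligand-binding or decoy receptors were at the limit of detection. Il1rl1, the IL-33 receptor, had 0, 3.61 and 1.23 normalized counts in WT and 4.78, 4.16 and 1.92 in Irf1-/- replicates 1, 2 and 3, which are at most 4 reads in a library. Il1r1, the signalling IL-1 receptor, had 0, 0 and 0.615 in WT and 3.58, 2.77 and 1.28 in Irf1-/- cells, 1 read against 7 reads in all. Il1r2, the decoy receptor, had 2 reads in each group, with 2.50, 0 and 0 in WT and 0, 1.39 and 0.639 in Irf1-/- cells. No fold is given for these 3 genes, which stayed under a mean normalized count of 10 and were not entered in the model. The Il1r1 values of the groups did not overlap, but they rest on at most 3 reads in a library. At this depth no difference can be read from these genes, and counts per gene cannot separate the soluble from the membrane form of Il1rl1.

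Sigirr (ENSMUSG00000025494, chromosome 7 from 141091175 to 141100572), the inhibitory receptor, was steady at a high level. It had 362, 313 and 405 normalized counts in WT and 387, 404 and 440 in Irf1-/- replicates 1, 2 and 3. The groups overlapped, since WT replicate 3 lay above the first 2 Irf1-/- replicates, and the log2 fold change was 0.19 with a standard error of 0.10. With the Y-linked covariate it was 0.02.

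Il1rn (ENSMUSG00000026981, chromosome 2 from 24336853 to 24351494), the IL-1 receptor antagonist, was higher without IRF1. Its normalized counts were 299.5, 239 and 256 in WT and 504, 549 and 401 in Irf1-/- replicates 1, 2 and 3. The lowest Irf1-/- library, replicate 3, lay above the highest WT library, replicate 1. The means of 265 ± 31.1 and 485 ± 75.7 (SD, n = 3 each) gave a log2 fold change of 0.86 with a standard error of 0.12. Neither the Y-linked covariate, with 0.90, nor the 2 depths, with 0.97 in replicates 1 and 2 and 0.64 between the replicates 3, changed the direction. Myeloid cells also make Il1rn, and the highest value fell in Irf1-/- replicate 2. Without that library the log2 fold change was 0.77. Irf1-/- replicate 3, with 401, had the lowest myeloid sum of the 6 libraries (42.8), and the part of myeloid cells in the Il1rn values was not tested in any library. The counts do not separate the secreted from the intracellular forms of Il1rn.

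Il18bp (ENSMUSG00000070427, chromosome 7 from 102014885 to 102018690), the soluble trap of IL-18, was lower in the Irf1-/- libraries. WT replicates 1, 2 and 3 had 42.4, 36.1 and 28.9 normalized counts and Irf1-/- replicates 1, 2 and 3 had 21.5, 18.0 and 25.6. The groups did not overlap, but WT replicate 3 and Irf1-/- replicate 3 were close. The means of 35.8 ± 6.77 and 21.7 ± 3.77 (SD, n = 3 each) gave a log2 fold change of -0.69 with a standard error of 0.24. It was -0.96 in replicates 1 and 2, -0.17 between the replicates 3 and -0.41 with the Y-linked covariate. The gene shares 80 bases with Numa1 on the opposite strand, a gene with 2166 to 2375 normalized counts in every library, and since counting was not stated to use strand, some reads of Il18bp could belong to Numa1.

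**Figure D2:**
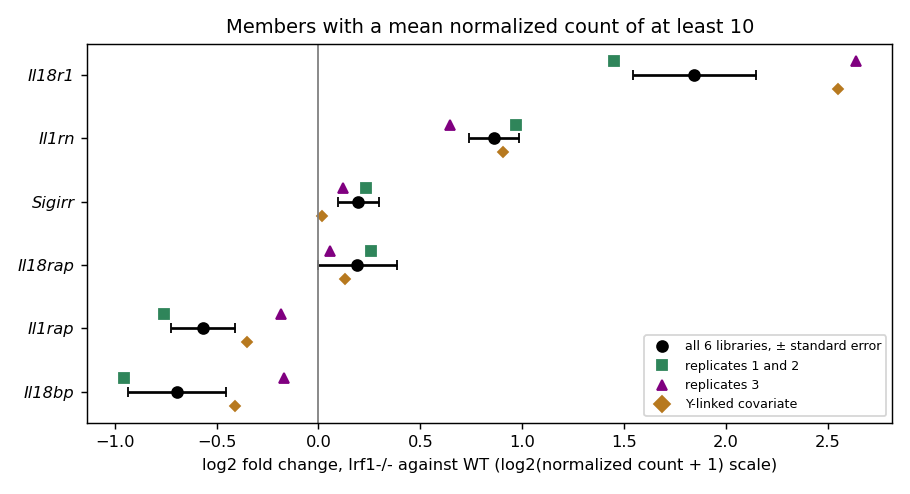
Log2 fold change, Irf1-/- against WT, of the 6 members averaging at least 10 normalized counts, on the log2(normalized count + 1) scale. Black circles with bars give the fit over all 6 libraries ± standard error, green squares the replicates 1 and 2, purple triangles the replicates 3 and brown diamonds the fit with the Y-linked covariate, and Il1rap and Il18bp move to -0.19 and -0.17 in the replicates 3.

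Of the 9 genes, 6 averaged at least 10 normalized counts and entered the fit across all 11379 such genes. In limma with Benjamini-Hochberg adjustment, 23.7% of all tested genes differed at an adjusted p below 0.05, 11.4% higher and 12.4% lower in Irf1-/- cells, and the groups did not overlap for 40.5% of them. By the same count, 2 of the 6 members were called higher and 1 lower, and the groups did not overlap for 4 of the 6. Because the set was chosen with these values known, these counts are no test of the members and nothing is read from them. The 1 lower call, that of Il1rap, was lost in 6 of 17 alternatives, namely DESeq2, the Y-linked covariate and the fits without WT replicate 1, WT replicate 2, Irf1-/- replicate 1 or Irf1-/- replicate 2. The median log2 fold change was 0.19 over the 6 genes and -0.00 over all tested genes. Over the 6 fits that leave out a library, log2 fold changes ranged from 1.49 to 2.06 for Il18r1, from 0.77 to 0.99 for Il1rn, from -0.67 to -0.47 for Il1rap and from -0.84 to -0.57 for Il18bp.

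Of the receptor genes, 5 members and Il1rl2, the IL-36 receptor, stand in a single cluster of 478 kb on chromosome 1, all on the plus strand and in the order Il1r2, Il1r1, Il1rl2, Il1rl1, Il18r1 and Il18rap. Il1rl2 had 12.5 ± 4.94 normalized counts in WT and 8.85 ± 2.56 in Irf1-/- cells (SD, n = 3 each), a log2 fold change of -0.41 with an adjusted p of 0.519 in limma. On the proximal side, the kinase gene Map4k4 had 2324 ± 86.4 and 2346 ± 13.3, with an adjusted p of 0.874 in limma. No gene within 2 Mb on the distal side entered the fit. There Slc9a4 was at 0 in all libraries, and Mfsd9, just under the minimum, had 16.2, 10.8 and 9.84 normalized counts in WT and 8.36, 8.32 and 5.75 in Irf1-/- replicates 1, 2 and 3, groups that did not overlap. Of 12 tested non-member genes that start within 2 Mb of the cluster, 1 passed (8.33%, against 23.7% of all genes). It was Aff3, a nuclear factor of lymphoid cells 1.41 Mb from the cluster, which fell from 1382 ± 160 to 805 ± 117 (SD, n = 3 each), with an adjusted p of 0.000821 in limma.

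**Figure D3:**
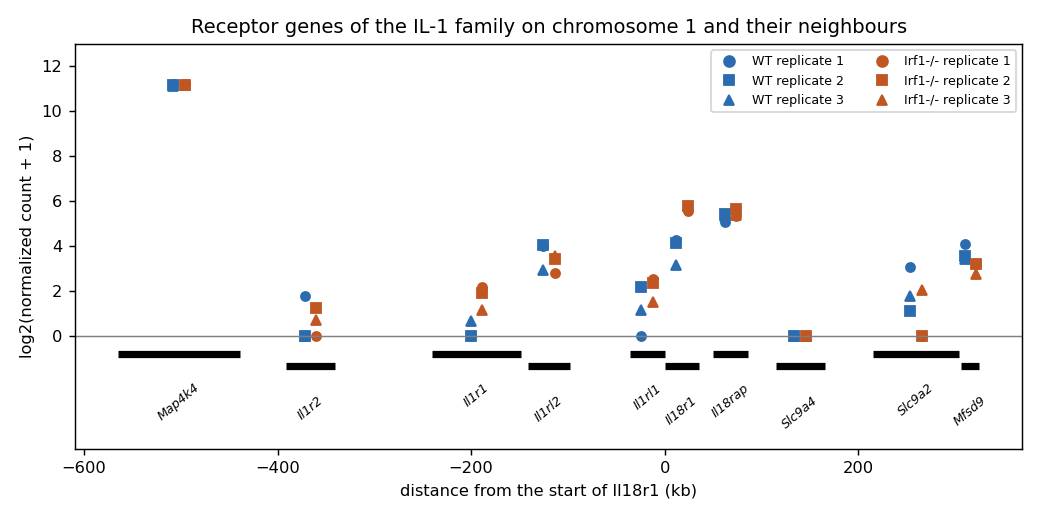
Log2(normalized count + 1) of the chromosome 1 receptor genes and their neighbours in each library (blue, WT; orange, Irf1-/-), drawn above the gene's extent, with distance from the start of Il18r1 in kb on the horizontal axis and points of both groups set slightly apart. Il18r1 shows separate groups, as do Il1r1 and Mfsd9 at lower values, while Il18rap and Map4k4 overlap, and Slc9a4 is at 0 in all 6 libraries.

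Ligands and signalling genes of the family were taken as a list of 39 further genes, of which 26 could be tested. Of these, 2 rose and 4 fell in Irf1-/- cells, or 23.1% against 23.7% of all genes, and their median log2 fold change was 0.03. Among 9 ligands and ligand-like genes 2 were tested, and Il1a, which encodes IL-1α, rose from 258 ± 53.9 to 444 ± 60.8 normalized counts (SD, n = 3 each), a log2 fold change of 0.79 with an adjusted p of 0.00449 in limma. Il1a and its antagonist Il1rn were therefore both higher in the same libraries, while the receptor that both bind, Il1r1, gave at most 3 reads in a library. Il1b, named here after its values were seen, had 6.24, 9.62 and 4.92 normalized counts in WT and 9.55, 251 and 12.1 in Irf1-/- replicates 1, 2 and 3. Its high value was that of the single library rich in myeloid transcripts, and it did not pass (adjusted p = 0.141 in limma). Transcripts for the other 2 ligands of these receptors were at or near 0, with Il18 in 1 library only and Il33 in 2.

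Of the 5 tested adaptors and kinases none passed. Myd88, the common adaptor, had 720 ± 27.9 normalized counts in WT and 630 ± 25.3 in Irf1-/- cells (SD, n = 3 each), with an adjusted p of 0.0529 in limma. Of the 9 tested genes for ubiquitin ligases and the TAK1 complex, Peli2, a ligase acting on IRAK proteins, rose from 7.32 ± 4.18 to 30.8 ± 4.50 (log2 fold change 2.09, adjusted p = 0.00658 in limma), which was 1.54 and not called with the Y-linked covariate. Its relative Peli1 fell by a log2 fold change of -0.32 (adjusted p = 0.0421 in limma), and Map3k7, the TAK1 kinase, by -0.26 (adjusted p = 0.0149). Peli1 lost its call without any 1 of the WT replicates, Irf1-/- replicate 1 or Irf1-/- replicate 2, with values from -0.35 to -0.24, and Map3k7 without WT replicate 1 or 2, with values of -0.21 and -0.26, and with the Y-linked covariate, with -0.17. Among the 7 output genes, only Nfkbia, the inhibitor and target of NF-κB, fell, by -0.36 (adjusted p = 0.0425 in limma). Its value was -0.04 with the Y-linked covariate, and the call was lost without any 1 of 5 libraries, all but WT replicate 3, with values from -0.40 to -0.26. In limma without its mean-variance trend, the calls of Peli1, Map3k7 and Nfkbia were all lost, and that of Peli1 was also lost when the libraries were scaled by TMM.

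Genes that process and release the ligands held the lowest log2 fold change of the 26, that of Gsdmd. Gsdmd, the pore protein through which IL-1β and IL-18 leave the cell, had 42.4, 39.7 and 51.6 normalized counts in WT and 17.9, 11.1 and 8.95 in Irf1-/- replicates 1, 2 and 3. It fell by a log2 fold change of -1.78 with a standard error of 0.28 (adjusted p = 0.00158 in limma), and it passed in 16 of 16 alternative fits. Casp1, the protease that cleaves both ligands, was named after its values were seen, with 16.2, 10.8 and 14.8 in WT and 0, 2.77 and 1.28 in Irf1-/- replicates 1, 2 and 3. Its groups did not overlap, and its mean lay under the minimum for the fit. With no filter on low values, the 1 alternative that covers it, its log2 fold change was -2.85 (adjusted p = 0.00271 in limma), a value that depends on the pseudocount. Pycard, which links Casp1 to inflammasome sensors, did not pass, at 304 ± 11.7 and 315 ± 16.9.

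**Figure D4:**
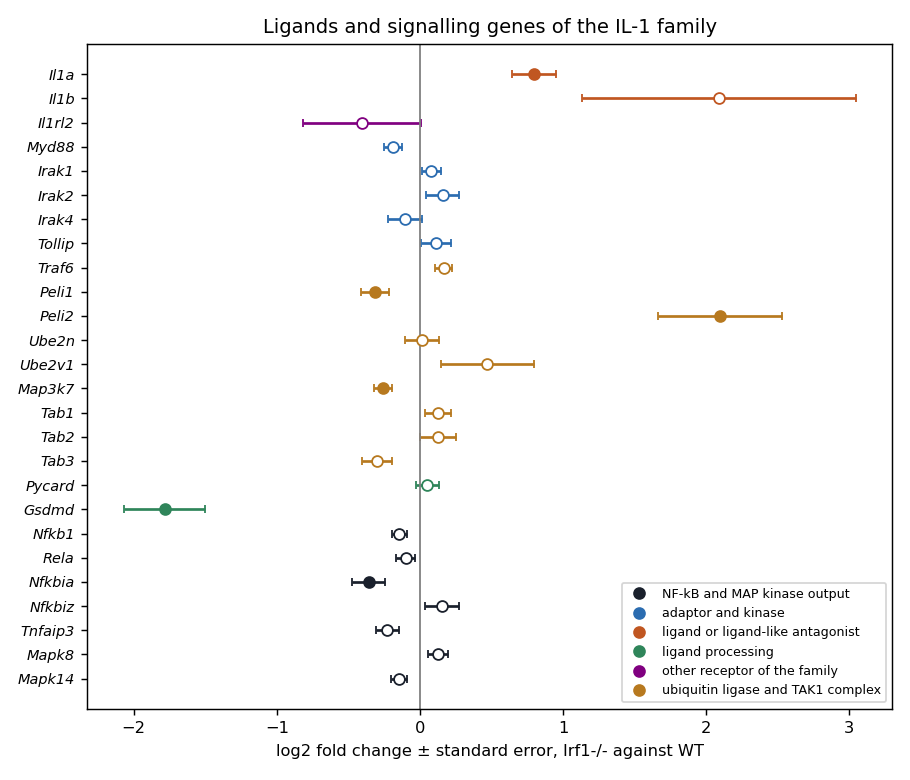
Log2 fold change ± standard error, Irf1-/- against WT, of the 26 tested ligand and signalling genes, coloured by role, with filled points for an adjusted p below 0.05 in limma. Il1a and Peli2 are filled to the right of 0, Gsdmd, Peli1, Map3k7 and Nfkbia are filled to the left, and Il1b has the widest bar.

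Factors and receptors that act on these receptor genes in helper T cells gave 5 calls among 11 tested genes, or 45.5% against 23.7% of all genes, 1 higher and 4 lower. This list was chosen with earlier results of these data known, so its share is no test and nothing is read from it. Il12rb1, the IL-12 receptor chain whose signal raises Il18r1 in Th1 cells, fell from 1339 ± 89.5 to 550 ± 58.4 normalized counts (SD, n = 3 each), a log2 fold change of -1.29 with a standard error of 0.08 (adjusted p = 4.95e-06 in limma). Tbx21, the Th1 factor T-bet, fell by -0.36 (adjusted p = 0.0108 in limma), though not with the Y-linked covariate (-0.17) nor without WT replicate 1 or 2 (-0.30 and -0.32). Il18r1 was thus higher in the libraries in which Il12rb1 and Tbx21 were lower. Stat3 fell by -0.38 (adjusted p = 0.00167) and Stat5a by -0.22 (adjusted p = 0.0087), the latter not called without WT replicate 2 or with the Y-linked covariate, where the values were -0.20 and -0.18. In limma without its mean-variance trend, neither Stat5a nor Tbx21 was called. Foxp3, the factor of regulatory T cells, rose from 182 ± 8.99 to 337 ± 5.91 (log2 fold change 0.89 with a standard error of 0.08, adjusted p = 5.8e-05 in limma). The other 2 regulatory T cell markers did not run with it, with Ikzf2 at 1577, 1718 and 2039 normalized counts in WT and 886, 893 and 1095 in Irf1-/- replicates 1, 2 and 3, lower in all Irf1-/- libraries. Il2ra, which is also induced on activated T cells, had 10150 to 13593 in WT and 11910 to 14097 in Irf1-/- cells, which overlapped. Gata3, the Th2 factor that acts on Il1rl1, did not pass, at 1762 ± 207 and 1859 ± 403 (log2 fold change 0.06 with a standard error of 0.13), and Stat6, Stat4, Stat5b and Il12rb2 were also among those that did not pass.

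The genes whose profile over the 6 libraries came closest to a member were found by the root mean square difference of the centred log2 values. For Il18r1 these were Ncmap (0.10), Nav1 (0.21) and Pou2af1 (0.23). Pou2af1, a coactivator of octamer-binding factors, shared the low WT replicate 3, with 58.7, 70.9 and 28.9 normalized counts in WT and 154, 158 and 133 in Irf1-/- replicates 1, 2 and 3. For Il1rn, Naaa (0.07) and Lmtk3 (0.08) were among the closest. Each of these genes resembles a member by choice, and the measure says only that 6 values run alike. Il1rl1 was too low to be compared.

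**Figure D5:**
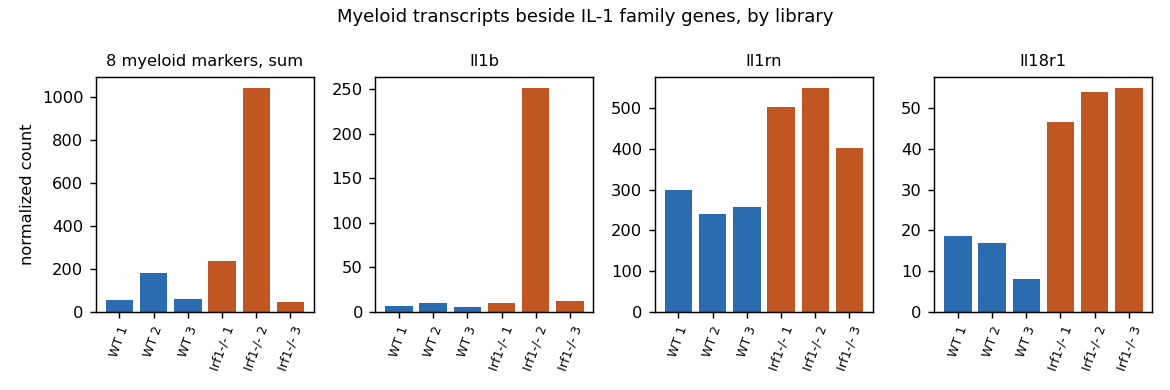
Bars give normalized counts per library from 0 (blue, WT; orange, Irf1-/-) for the sum of 8 myeloid markers, Il1b, Il1rn and Il18r1. The first 2 panels peak in Irf1-/- replicate 2, at 1042 and 251, whereas Il1rn and Il18r1 are higher in all 3 Irf1-/- libraries than in any WT library.

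The marker sums of other cells were set beside the members because many of them carry these receptors. The mast cell and basophil markers, cells rich in Il1rl1, summed to 13.5 to 22.5 in WT and 21.7 to 30.5 in Irf1-/- cells, with Fcer1a and Ms4a2 at 0 in all 6 libraries. Kit, which other cells also express, made up most of the sum, with 12.3 to 22.5 in WT and 21.1 to 29.8 in Irf1-/- cells. Of the 5 NK markers, cells rich in the IL-18 receptor, Ncr1, Klrb1c and Klra8 were at 0 in all libraries, while Il18r1 reached 55.0. Both CD8 genes together gave 32.4 to 41.2 in WT and 20.3 to 30.7 in Irf1-/- cells. B cell markers gave 18.7 to 26.4 and 21.7 to 37.4, with Pax5 at 0. The part of NK, CD8 and B cells in the members' values was not tested. The methods describe a sort of naive cells as CD4+CD44-CD62L+ for some experiments, and whether it was used for these libraries is not stated. Neutrophil markers, cells rich in Il1r2 and Il1rn, were at 0 in 5 libraries and at 5.55 in Irf1-/- replicate 2.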

How the data were processed

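RNA-Seq of 3 WT and 3 Irf1-/- Th9 cultures was used; per the submitters' notes and the methods, the authors aligned single-end reads with STAR 2.4.0b to GRCm38, counted them per Ensembl gene with featureCounts and used DESeq2 1.12.3. The deposited signal is a normalized count, and dividing by its smallest step returned whole reads for 100% of 101704 non-zero values (tolerance 1e-06). Strand and multi-mapping settings were not given in the sources used here. Symbols, found for 40254 of 41388 identifiers, and GRCm38 coordinates came from reference tables, with 4 listed genes matched by an older symbol.

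Normalized counts plus a pseudocount of 1 were log2-transformed, and 11379 genes with a mean of at least 10 were fitted with limma 3.58.1 (R 4.3.3, mean-variance trend, Benjamini-Hochberg adjustment). edgeR 4.0.16 and DESeq2 1.42.0 on recovered reads, other pseudocounts, filters, scalings, a replicate block, a Y-linked covariate and left-out libraries were alternatives. The models were tested on simulated data. Replicates differed by more than sampling noise. The chi-square per degree of freedom was 1.28 in WT and 1.78 in Irf1-/- cells between replicates 1 and 2, and 5.96 to 7.28 for pairs with a replicate 3. Members and gene lists were chosen with earlier results of these data known. Genes are named if they are members, if a pathway or regulator gene passed an adjusted p of 0.05, if they border the chromosome 1 cluster, or if among the 3 closest profiles; other genes, such as Myd88, Pycard, Gata3, Casp1, Il1b, Aff3 and cell type markers named singly, were named after their values were seen. Some genes that this rule or a list covers are not reported here. Depth, at 5639788 to 13348230 reads per library, limits genes near 3 reads, where values cover counting error only. ChIP-Seq was not analysed here.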

Additional observations from a re-analysis of the deposited data

How the results depend on the processing

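Over the alternatives with a test, no fitted member and no pathway or regulator gene that passed changed direction, with log2 fold changes from 1.36 to 2.55 for Il18r1 and from 0.77 to 0.99 for Il1rn. Of all genes, 2699 passed, against 1735 without the mean-variance trend, 2002 with DESeq2, 1356 with the Y-linked covariate, 3895 with replicates 1 and 2 only and 1625 to 2802 with 1 library left out. Of the 6 members, 3 were called, against 2 with DESeq2 or the Y-linked covariate, 5 with replicates 1 and 2 only, and 2 to 4 with 1 library left out. A mean of at least 50 left 3 members in the fit, of which 2 were called. Of the pathway genes called higher, 2 became 1 with a mean of at least 50, where Peli2 was not tested, 1 with the Y-linked covariate and 4 with replicates 1 and 2 only. Those called lower, 4, became 1 without the trend, 9 with replicates 1 and 2 only, and 1 to 5 with 1 library left out. The 5 regulator calls became 3 without the trend or with the Y-linked covariate, and 3 to 6 with 1 library left out. The 1 neighbour called became 3 with replicates 1 and 2 only and 1 to 2 with 1 library left out. With other windows it became 0 of 8 tested genes within 1 Mb and 8 of 50 within 5 Mb (16%, against 23.7% of all genes). The cause of these shifts was not tested. The replicates 3 alone, 1 library a group, gave values but no test.

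Replicate numbers were shared between the groups. Deviations from the group means correlated at 0.09, 0.27 and 0.32 between same-numbered libraries across 11379 genes, and every library correlated best with its own number, which is a hint from the data and not from the design, so that the samples are taken to share only a number. With the replicate block, 4009 genes passed, as did 4 members, 4 pathway genes higher, 9 lower and 2 neighbours.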
